A study of Homo sapiens with 54 samples.

Results

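CAPRIN2 and ARL14 were followed across 9 treatments and 3 times in HT-29 cells, a human colon adenocarcinoma line of epithelial origin. Each gene was read by 1 probe set, a group of short oligonucleotides on the array: 218456_at for CAPRIN2 and 220468_at for ARL14. They are 2 of the 11963 genes for which the platform annotation gives a probe set of their own, and it gives neither gene a further one. They were chosen as genes with a sustained response to epidermal growth factor (EGF), with measured values of these arrays in view. Which values were used is not stated. The difference between 100 ng/ml EGF and untreated cells was taken to be among them, so all differences that use arrays with 100 ng/ml EGF are described here and not tested for these genes.

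CAPRIN2 encodes a cytoplasmic RNA-binding protein of the caprin family, and the protein also binds the Wnt co-receptor LRP6 and promotes its phosphorylation. ARL14 encodes a small GTPase of the ADP-ribosylation factor family, which are molecular switches of vesicle traffic. It has been placed on vesicles that carry MHC class II molecules in dendritic cells, where it links them to the motor protein MYO1E. EGF binds the receptor tyrosine kinase EGFR and activates the ERK kinase cascade, which in many cells gives a brief wave of early genes followed by later ones.

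All cells were plated at 50000 per cm2 and carried interferon-gamma at 200 U/ml for 24 h before the treatments, untreated cells included. Of the 9 treatments, 1 added nothing, 2 were tumour necrosis factor (TNF) alone in doses of 5 and 100 ng/ml, and 2 were 100 ng/ml EGF alone and 500 ng/ml insulin alone. TNF in its high dose was further combined with these doses of EGF and of insulin, and TNF in its low dose with 1 ng/ml EGF and with 5 ng/ml insulin. RNA was taken at 4, 8 and 16 h in biological duplicate, which gave 54 arrays in 27 groups of 2. All groups are cultures of 1 cell line, and EGF at 1 ng/ml was given only with TNF. Because RNA came from whole cultures, a smaller share of cells with a transcript and less of it per cell cannot be told apart.

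Array medians lay between 110.9 and 168 signal units, and the number of arrays limits the precision of every value. Of 15 epithelial and colon markers, 13 had a mean signal at or above the filter's level of 138.9, with the keratin KRT18 highest, while the intestinal transcription factors CDX1 and CDX2 lay below it. The leukocyte marker PTPRC and 8 further immune markers of 11 on the array lay below that level, and LYZ and ITGAM above it. Of 11 fibroblast and endothelial markers 4 lay above it, and their summed signal was 953 to 1268 in groups with 100 ng/ml EGF and 953 to 1511 over all groups. Shortened RNA raises the ratio of 3′ to 5′ signal of ACTB, and the median log2 ratio was 0.32 in the 9 arrays of replicate 2 at 8 h, 0.31 in the 9 of replicate 2 at 16 h and −0.08 in the 36 others. The highest arrays were TNF at 100 ng/ml (1.19) and insulin (0.98), both at 8 h in replicate 2, and TNF at 100 ng/ml with insulin at 16 h in replicate 1 (0.63).

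CAPRIN2 was near its lowest in untreated cells and higher at every time with 100 ng/ml EGF. In untreated cells the signals of replicates 1 and 2 were 207 and 198 at 4 h, 285 and 253 at 8 h, and 304 and 414 at 16 h. With EGF they were 726 and 551 at 4 h, 735 and 571 at 8 h, and 845 and 871 at 16 h. Every EGF array lay above every untreated array of its time, and the untreated signal itself was highest at 16 h. This order may restate what the gene was chosen on. Where 2 arrays are set against 2, here and below, the share of probe sets with ranges apart was not counted unless it is given. On the scale of log2(signal + 12.49), EGF minus untreated was 1.59, 1.23 and 1.25 at 4, 8 and 16 h. The mean over times was 1.35 ± 0.14 (SE, n = 6 arrays per treatment), or 2.56-fold.

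ARL14 was also higher with EGF at every time, but on a base that itself moved with time. Untreated signals were 146 and 168 at 4 h, 102 and 124 at 8 h, and 331 and 304 at 16 h. With EGF they were 383 and 602 at 4 h, 231 and 239.9 at 8 h, and 675 and 673 at 16 h. The EGF arrays again lay above the untreated arrays of the same time, although the EGF level at 8 h was below the untreated level at 16 h. This order too may restate the choice of the gene. EGF minus untreated was 1.54, 0.99 and 1.06 on the log2 scale at 4, 8 and 16 h, or 2.91-, 1.98- and 2.08-fold. The mean was 1.19 ± 0.15 (SE, n = 6 arrays per treatment).

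**Figure D1:**
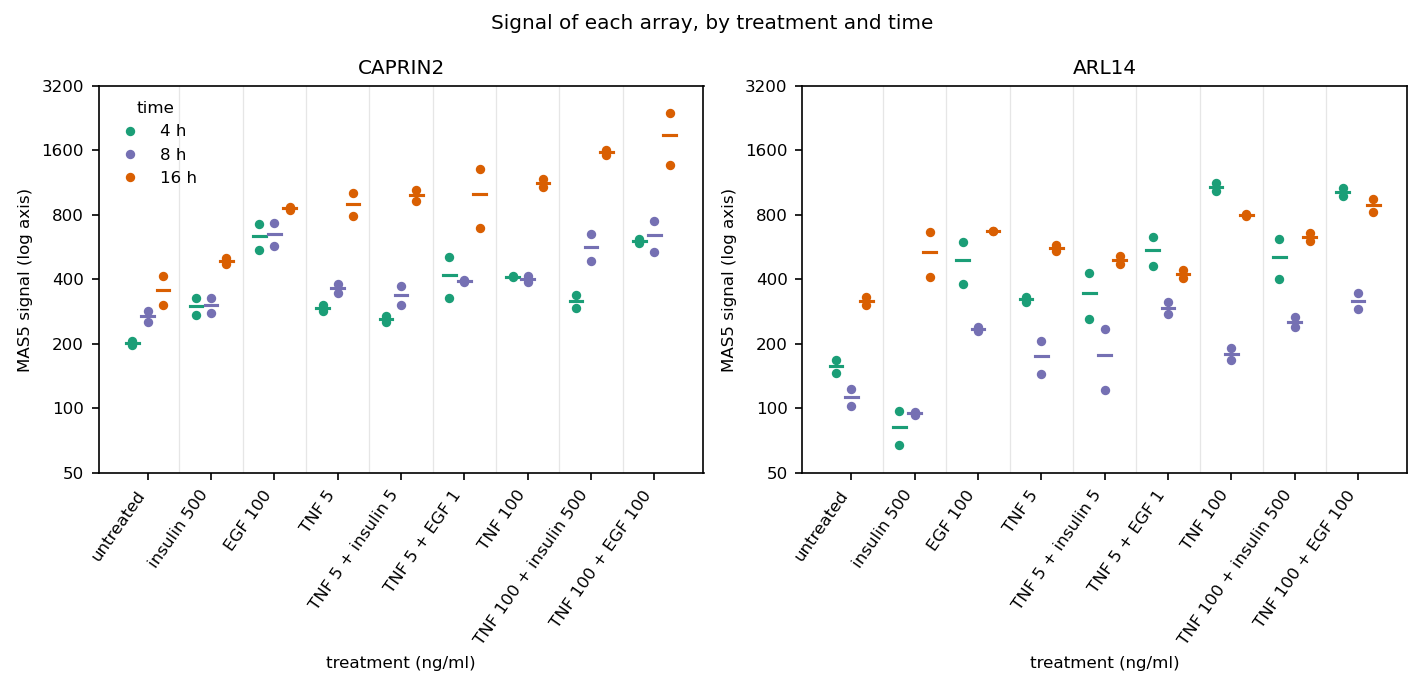
MAS5 signal of CAPRIN2 (left) and ARL14 (right) on every array, on a log axis, by treatment (doses in ng/ml) and coloured by time; points are the 2 arrays of a group and bars their mean. CAPRIN2 is highest at 16 h in every treatment, with its highest array at 2403 under TNF 100 with EGF 100, while ARL14 lies low at 8 h and reaches 1038 and 1129.9 with TNF 100 at 4 h.

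Ordered by the mean EGF difference over times, CAPRIN2 stood at place 2 and ARL14 at place 4 of 8105 genes, each gene taken by its probe set of highest mean. By single times the places were 14, 23 and 10 for CAPRIN2 and 16, 54 and 25 for ARL14 at 4, 8 and 16 h. A log2 difference of at least 1 was reached by 47 genes at 4 h, 49 at 8 h and 35 at 16 h, and CAPRIN2 reached it at all 3 times. ARL14 was just outside at 8 h, with 0.99. Over all 13422 probe sets tested, 0.529% were called higher with EGF by the limma F test over the 3 times, with p adjusted by Benjamini and Hochberg to a level of 0.05. These places may restate what the genes were chosen on.

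Courses of 6 genes from the ERK, EGF and Wnt lists can be set beside these 2. FOSL1, an AP-1 subunit that follows ERK activity, rose by 0.98 ± 0.11 on average with EGF (1.06, 1.39 and 0.51 at 4, 8 and 16 h; limma adjusted p = 1.42e-06). HBEGF, a ligand of the same receptor, was higher by 3.07 at 4 h, by 0.50 at 8 h and by −0.20 at 16 h (adjusted p = 0.000194), from a signal of 28.2 in untreated cells at 4 h. The early transcription factors EGR1 and KLF6 were 1.96 and 2.39 higher at 4 h, and 0.02 and −0.08 at 8 h (adjusted p = 0.00149 and 0.0195). PLAUR, the urokinase receptor, had 0.40, 0.62 and 0.36 (adjusted p = 0.0489, and 0.286 without the 8 h arrays). From the Wnt list DKK1, a secreted antagonist of LRP6, rose with 1.70, 1.27 and 0.53 (adjusted p = 3.68e-09). The epithelial marker CEACAM5 had 0.03, 0.14 and 1.16 (limma adjusted p = 0.0342, and 0.0583 without the 8 h arrays). Lasting differences were also seen in genes nearest to CAPRIN2 in pattern, which are listed below. RHOF had 0.49, 0.85 and 0.54, NDRG1 0.41, 0.64 and 0.64, and IL1RN 0.45, 0.69 and 0.62. In the same list MTMR11 had −0.08 at 4 h and DMTF1 0.04 at 8 h. Whether the course of CAPRIN2 or ARL14 differs from any of these was not tested.

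**Figure D2:**
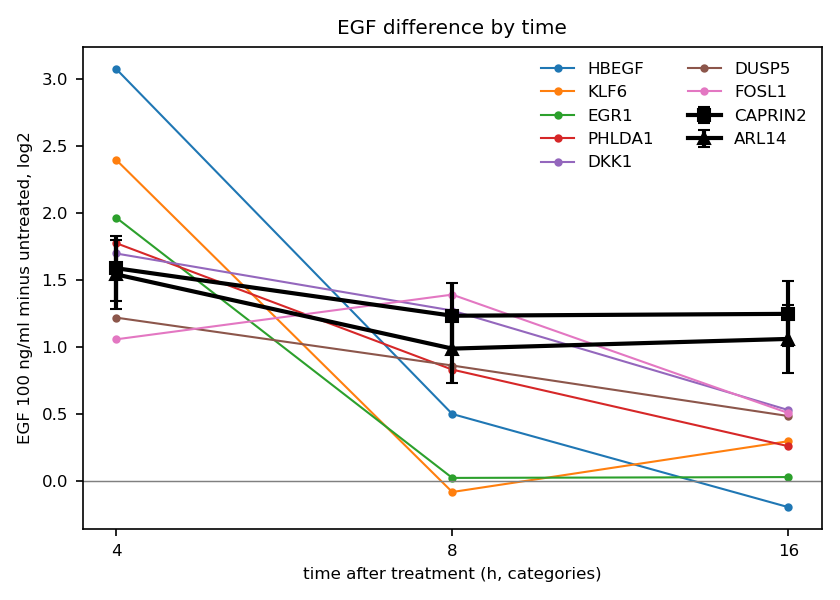
Difference between EGF at 100 ng/ml and untreated cells on the log2 scale at 4, 8 and 16 h, for CAPRIN2 and ARL14 (black, with SE; 2 arrays per treatment and time) and 7 genes of the ERK, EGF and Wnt lists (colours). HBEGF, KLF6 and EGR1 are high at 4 h, from 1.96 to 3.07, and at most 0.50 later. FOSL1, DKK1, DUSP5 and PHLDA1 are above 0 at every time, with 0.51, 0.53, 0.48 and 0.26 at 16 h. CAPRIN2 has 1.59, 1.23 and 1.25 at 4, 8 and 16 h, and ARL14 has 1.54, 0.99 and 1.06.

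Adding 100 ng/ml EGF to 100 ng/ml TNF gave smaller differences than EGF alone. The difference with EGF alone is taken to have chosen the genes, which favours a high value for it. With TNF alone CAPRIN2 had 415 and 409 at 4 h, 388 and 414 at 8 h, and 1180.0 and 1084 at 16 h. With TNF and EGF it had 592 and 618 at 4 h, 752 and 537 at 8 h, and 1364 and 2403 at 16 h. The arrays with both factors lay above those with TNF alone at each time, and the pair at 16 h was wide apart. The differences were 0.54, 0.65 and 0.67, with a mean of 0.62 ± 0.14 (SE, n = 6 arrays per treatment). The interaction, which is the EGF difference with TNF minus that without, was −0.73 ± 0.20 for CAPRIN2. It was −0.91 ± 0.21 for ARL14 and −1.26 without the 8 h arrays. Both interactions subtract the difference with EGF alone, so they may restate the choice and do not show that TNF changed the response to EGF.

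For ARL14 the EGF difference on top of TNF was seen at 8 h and little elsewhere. With TNF alone its signals were 1038 and 1129.9 at 4 h, 168 and 191 at 8 h, and 792 and 809 at 16 h. With both factors they were 1071 and 976 at 4 h, 345 and 291 at 8 h, and 830.1 and 954 at 16 h. The 4 h arrays of the 2 treatments overlapped, and those at 8 and 16 h did not. The log2 differences were −0.08, 0.78 and 0.15, with a mean of 0.28 ± 0.15 (SE, n = 6 arrays per treatment).

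Across all treatments of a time, CAPRIN2 at 4 h was the 1 case in which the 4 arrays with 100 ng/ml EGF, at 551 to 726, lay above all 14 others, which ran from 198 to 510.1. Such a gap was found for 8 of 13422 probe sets (0.0596%) at 4 h, and for CAPRIN2 it may restate what the gene was chosen on. The array at 510.1 was one of TNF 5 ng/ml with EGF 1 ng/ml. At 8 h 1 other array reached the lowest EGF array and at 16 h 8 did, all of them arrays with TNF. For ARL14 the numbers of other arrays at or above the lowest EGF array were 7, 5 and 2 at 4, 8 and 16 h.

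The lower EGF dose was compared on arrays that hold neither untreated cells nor 100 ng/ml EGF. EGF at 1 ng/ml was added to 5 ng/ml TNF. CAPRIN2 had 304 and 284 with TNF alone and 327 and 510.1 with EGF at 4 h, 379 and 348 against 399.9 and 389 at 8 h, and 794 and 1012 against 695 and 1306 at 16 h. The EGF arrays were above the TNF arrays at 4 and 8 h, and at 16 h their range enclosed that of the TNF arrays. The mean difference was 0.22 ± 0.14 (95% interval −0.06 to 0.50; n = 6 arrays per treatment), which did not pass in the limma F test (adjusted p = 1).

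ARL14 had 315 and 331 with 5 ng/ml TNF and 463 and 630.0 with 1 ng/ml EGF added at 4 h. At 8 h the signals were 206 and 144 without and 276 and 314 with EGF, and at 16 h 541 and 579 without and 406 and 445 with it. The arrays with EGF were thus higher at 4 and 8 h and lower at 16 h, without overlap at any time. The share of probe sets with arrays apart in this way was not counted, so the separation is a description only. The log2 differences were 0.72, 0.73 and −0.39, with a mean of 0.35 ± 0.15 (95% interval 0.05 to 0.65). The unadjusted p was 0.002 and the adjusted p of limma's F test 0.947, so the difference did not pass. In this comparison 0 of the 13422 probe sets were called (0%), and 560 had an unadjusted p under 0.05. A difference between the times did not pass either (limma adjusted p = 1).

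In cells not given EGF, TNF raised both genes. With 100 ng/ml TNF, CAPRIN2 rose by 1.06 ± 0.14 over untreated cells, or 2.08-fold (limma adjusted p = 1.58e-06), with differences of 0.98, 0.56 and 1.64 at 4, 8 and 16 h. ARL14 rose by 1.54 ± 0.15, or 2.90-fold (adjusted p = 4.12e-10), with 2.69, 0.62 and 1.30. Both were higher in 6 of 6 arrays when set against the untreated array of the same time and replicate number, and 6.69% of probe sets were called higher. These tests share the untreated arrays with the EGF difference taken to have chosen the genes. Such a choice favours low untreated values and may thus enlarge the TNF differences. The TNF effect on ARL14 differed between times, being smaller by 2.08 at 8 h and by 1.39 at 16 h than at 4 h (limma adjusted p = 0.00118; 2.44% of probe sets called). For CAPRIN2 the same test did not pass (adjusted p = 0.209). In cells given 100 ng/ml EGF, which are described and not tested, adding 100 ng/ml TNF changed CAPRIN2 by −0.06, −0.03 and 1.07 at 4, 8 and 16 h. The mean was 0.33 ± 0.14, so the rise was seen at 16 h only. ARL14 differed there by 1.07, 0.41 and 0.40, with a mean of 0.63 ± 0.15.

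A comparison that shares neither EGF nor untreated arrays is that of TNF at 100 ng/ml in cells given 500 ng/ml insulin. CAPRIN2 had 274 and 329 with insulin and 295 and 339 with both at 4 h, 278 and 329 against 649.7 and 489.6 at 8 h, and 472 and 503 against 1616 and 1524 at 16 h. The groups overlapped at 4 h and were apart afterwards. CAPRIN2 rose by 0.87 ± 0.14 on average (limma adjusted p = 3.86e-06; 6 of 6 arrays higher), with 0.07, 0.87 and 1.66 by time, and 8.9% of probe sets were called higher.

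ARL14 took the opposite course in this comparison. It had 67.2 and 97.0 with insulin and 400.2 and 616 with both at 4 h, 93.5 and 96.5 against 266 and 239.7 at 8 h, and 409 and 668 against 661 and 608 at 16 h. The groups were apart at 4 and 8 h and overlapped at 16 h. ARL14 rose by 1.34 ± 0.15 on average (limma adjusted p = 3.43e-09; 5 of 6 arrays higher), with 2.45, 1.30 and 0.27 by time. The effect differed between times for both genes, which 4.43% of probe sets did. It was 1.59 larger at 16 h than at 4 h for CAPRIN2 (limma adjusted p = 0.0112) and 2.18 smaller for ARL14 (adjusted p = 0.00064). The CAPRIN2 call was lost when any of 3 arrays was left out, namely insulin with TNF at 4 h in replicate 1 (adjusted p = 0.0522), insulin at 4 h in replicate 2 (0.0617) or insulin at 16 h in replicate 1 (0.0556).

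**Figure D3:**
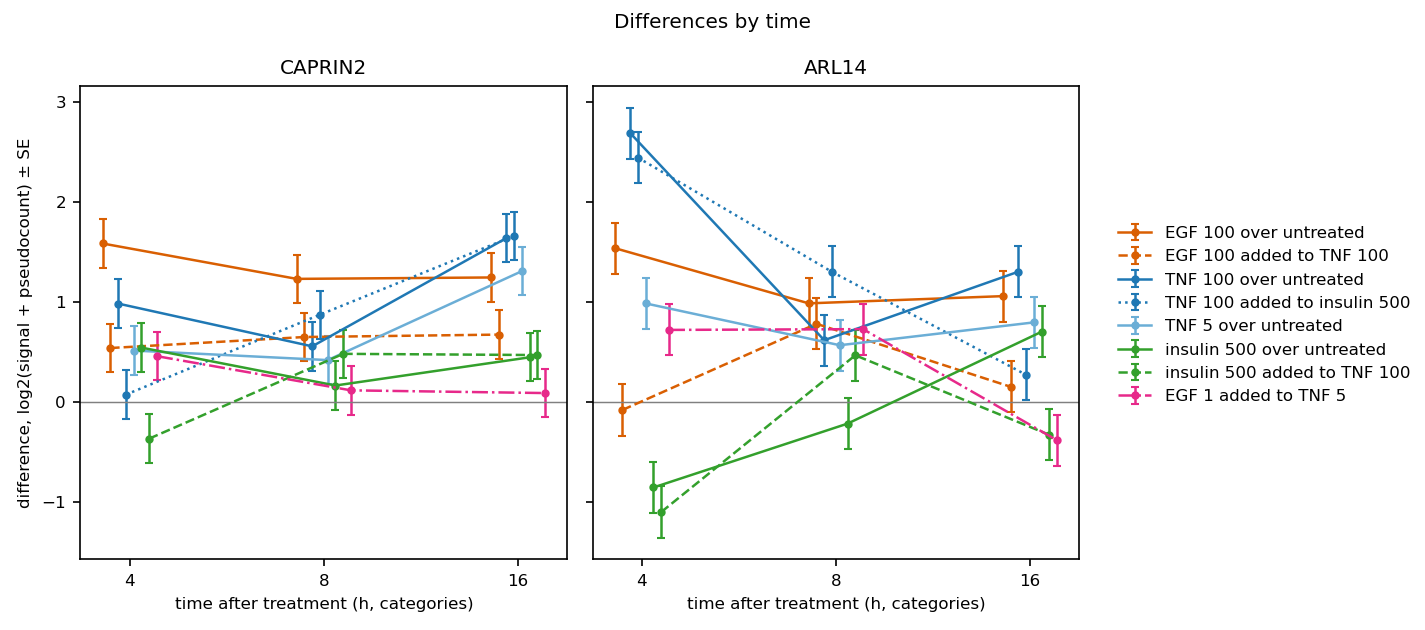
Difference between treatments on the log2 scale at 4, 8 and 16 h for CAPRIN2 (left) and ARL14 (right), with SE bars (2 arrays per treatment and time; doses in ng/ml). For CAPRIN2 the TNF lines are highest at 16 h, at 1.64 and 1.66 for 100 ng/ml, whereas those of ARL14 are highest at 4 h, at 2.69 and 2.45.

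The lower TNF dose of 5 ng/ml raised CAPRIN2 by 0.75 ± 0.14 (0.51, 0.42 and 1.31 by time; limma adjusted p = 0.000589) and ARL14 by 0.78 ± 0.15 (0.99, 0.57 and 0.80; adjusted p = 0.0027), each in 6 of 6 arrays, while 4.26% of probe sets were called higher. This comparison too is against the untreated arrays that the choice of the genes is taken to have used, and may be enlarged in the same way. The doses differed for ARL14, which was 0.76 ± 0.15 higher with 100 than with 5 ng/ml (limma adjusted p = 0.000533; 5 of 6 arrays; 0.626% of probe sets called higher). By time that difference was 1.71, 0.05 and 0.51. For CAPRIN2 the dose difference of 0.31 ± 0.14 (95% interval 0.03 to 0.60) did not pass (adjusted p = 0.719).

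Insulin at 500 ng/ml changed neither gene past the threshold in the fit without a replicate block. Untreated arrays, which the choice of the genes is taken to have used, enter these tests as well. CAPRIN2 differed from untreated cells by 0.38 ± 0.14 (0.54, 0.16 and 0.45 by time; 95% interval 0.10 to 0.67; limma adjusted p = 0.856). ARL14 had −0.86 at 4 h, −0.22 at 8 h and 0.70 at 16 h, so that its mean was −0.13 ± 0.15 (95% interval −0.43 to 0.18; limma adjusted p = 0.201). With the replicate number as a block within each time ARL14 passed (adjusted p = 0.0242). Few probe sets were called in this comparison (0.231%). Its insulin arrays at 4 h, at 67.2 and 97.0, were the lowest group of ARL14 in the series, and those at 16 h, at 409 and 668, lay above the untreated ones.

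Added to 100 ng/ml TNF, insulin left ARL14 at 400.2 and 616 at 4 h where TNF alone had 1038 and 1129.9. The mean difference over times was −0.32 ± 0.15 (−1.10, 0.47 and −0.33 by time) and did not pass (limma adjusted p = 0.0632), against 0.499% of probe sets called. It passed with a pseudocount of 50 (adjusted p = 0.0415) and when the TNF with insulin array at 4 h of replicate 2 was left out (0.0355), and with the replicate number as a block at 8 h (0.0348). CAPRIN2 differed by 0.19 ± 0.14 (−0.37, 0.48 and 0.47; adjusted p = 0.523). At the low doses, insulin at 5 ng/ml added to 5 ng/ml TNF gave −0.04 ± 0.14 for CAPRIN2 and −0.05 ± 0.15 for ARL14 (limma adjusted p = 1 for both). There 0% of probe sets passed, with 279 at an unadjusted p under 0.05.

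The effect of TNF did not differ past the threshold between cells with and without 500 ng/ml insulin, as in all but 0.00745% of probe sets. The mean interaction was −0.19 ± 0.20 for CAPRIN2 and −0.20 ± 0.21 for ARL14 (limma adjusted p = 0.985 and 0.703). By time it was −0.91, 0.32 and 0.02 for CAPRIN2 and −0.25, 0.68 and −1.03 for ARL14, so the means average opposite signs. This interaction also holds the untreated arrays that the choice of the genes is taken to have used.

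EGF and insulin at the high doses can be set side by side as a description. EGF minus insulin was 0.97 ± 0.14 for CAPRIN2 and 1.32 ± 0.15 for ARL14 (SE, n = 6 arrays per treatment). For ARL14 it was 2.40 at 4 h and 0.36 at 16 h. In cells that also had TNF the difference was 0.43 ± 0.14 and 0.61 ± 0.15.

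**Figure D4:**
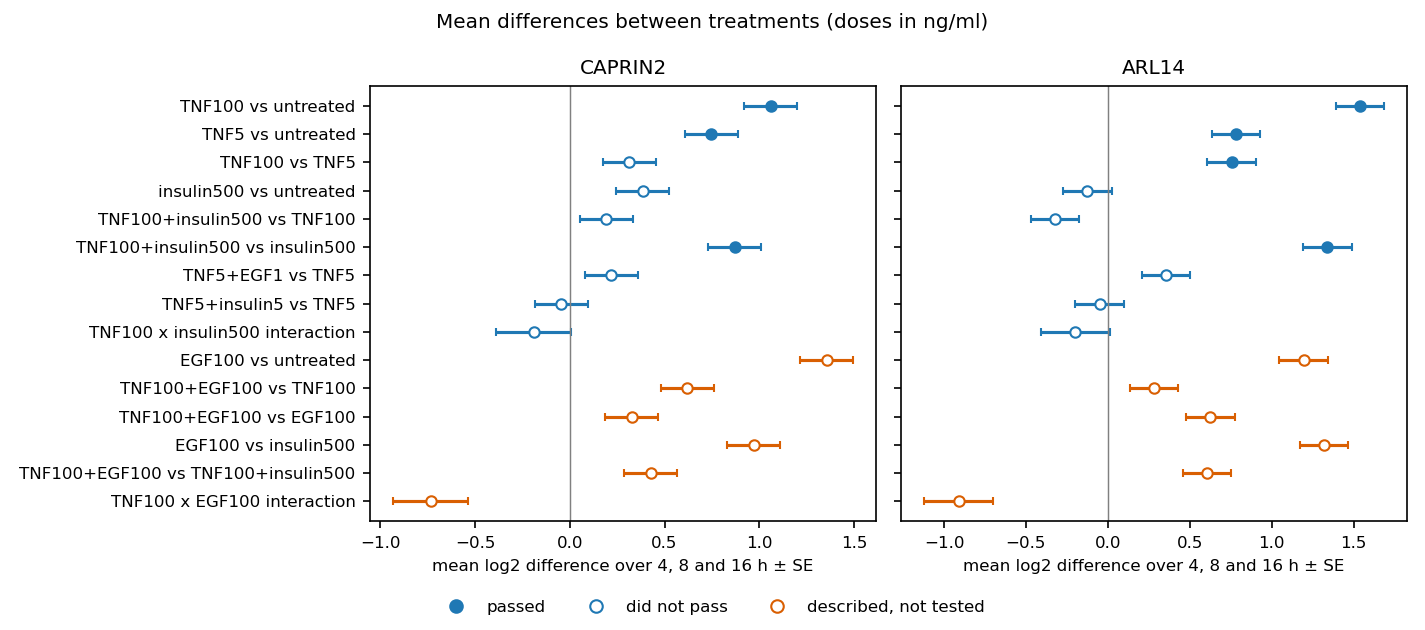
Mean log2 difference over 4, 8 and 16 h for each comparison (rows, doses in ng/ml), with SE bars (n = 6 arrays per treatment), for CAPRIN2 (left) and ARL14 (right); filled blue points passed limma's F test at an adjusted p under 0.05, open blue points did not, and orange points are described and not tested. The tested comparisons of TNF with cells not given it pass for both genes, from 0.75 to 1.06 for CAPRIN2 and 0.78 to 1.54 for ARL14, and the dose difference of TNF passes for ARL14, at 0.76. Rows against untreated cells and the interaction of TNF with insulin use untreated arrays that the choice of the genes is taken to have used.

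Both genes differed between times, in different ways. Over the 7 treatments without 100 ng/ml EGF, untreated cells included, CAPRIN2 was 0.25 higher at 8 h than at 4 h and 1.40 ± 0.09 higher at 16 h (limma adjusted p = 6.33e-15). ARL14 was lower by 0.90 at 8 h and higher by 0.62 ± 0.10 at 16 h (adjusted p = 1.15e-14). Between times 57.1% of all probe sets differed in this test. Time after treatment runs with time since plating and since interferon-gamma, and each time has its own arrays. These cannot be told apart here. The 16 h arrays of CAPRIN2 lay above its 4 h arrays in 9 of 9 treatments, a count that 5.86% of probe sets matched. The 8 h arrays of ARL14 lay below its arrays of both other times in 8 of 9 treatments, the exception being insulin alone. That pattern was noticed after the values were seen, and besides ARL14 the RNA helicase gene DDX17 had it as often (2 probe sets, 0.0149%). The 8 h signals of ARL14 were 93.5 to 345 in replicate 1 and 96.5 to 314 in replicate 2.

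The order of levels differed between the genes. CAPRIN2 was highest at 16 h with TNF and EGF (mean signal 1883), followed by TNF with insulin (1570.2) and TNF at 100 ng/ml (1132). The 3 groups with 5 ng/ml TNF came next with 903 to 1001 and then EGF alone at 16 h (858), and the lowest group was untreated at 4 h (202). ARL14 was highest at 4 h with 100 ng/ml TNF (1084) and with TNF and EGF (1023), and lowest with insulin at 4 h (82.1). From the highest to the lowest group the fold was 8.49 for CAPRIN2 and 11.7 for ARL14. Neighbours in the order were mostly not apart: the arrays of 6 of 26 neighbouring pairs did not overlap for CAPRIN2 and those of 9 of 26 for ARL14.

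Replicates of both genes were about as close as those of other probe sets. The residual SD was 0.24 for CAPRIN2 and 0.25 for ARL14 on the log2 scale, with a median of 0.28 over all probe sets. The widest pair was 695 and 1306 for CAPRIN2, at 16 h with TNF 5 ng/ml and EGF 1 ng/ml, and 234 and 122 for ARL14, at 8 h with TNF 5 ng/ml and insulin 5 ng/ml. CAPRIN2 reached the filter's level in 27 of 27 groups and ARL14 in 24, the others being untreated at 8 h and insulin at 4 and 8 h.

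The levels of the 2 genes followed each other in part. Over the 27 group means Pearson's r was 0.64 and Spearman's rho 0.65, and over the 21 groups without 100 ng/ml EGF r was 0.61. These groups share treatments and times, so the values are a description. Among 8104 other genes, ARL14 stood at place 693 by its r with CAPRIN2, and CAPRIN2 at place 115 by its r with ARL14.

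The genes nearest to CAPRIN2 by r over the 27 groups were CAB39 (0.93), a scaffold of the LKB1 kinase, PLAUR (0.93), the urokinase receptor, LRRFIP1 (0.91), the stress-responsive NDRG1 (0.90) and MTMR11 (0.90). RHOF, OASL, CTNNA1, IL1RN and DMTF1 followed at 0.89. Those nearest to ARL14 were EGFR (0.87), the nuclear receptor PPARD (0.87), SMAD3, a transducer of TGF-beta signals (0.84), ZBTB38 (0.84) and MBP (0.83). TNFRSF10B, a receptor for TRAIL, STK10, SGK1, TXNRD1 and RNF19A followed, from 0.83 to 0.81. The lists of 10 shared 0 genes. By Spearman's rho 6 and 8 of the 10 were found again, and without the 8 h arrays 4 of each.

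EGFR itself, the receptor for EGF, rose with 100 ng/ml TNF by 1.02 ± 0.15 (1.05, 0.88 and 1.13 at 4, 8 and 16 h; limma adjusted p = 5.08e-05). With EGF its difference was 0.67 ± 0.15 and did not pass (limma adjusted p = 0.114). In untreated cells its mean signal at 4, 8 and 16 h was 455, 300.3 and 788, lowest at 8 h like that of ARL14.

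Of the ERK-responsive genes, 9 of 28 measured rose with 100 ng/ml EGF and 0 fell, where 0.58% of all 8105 genes rose, and the median difference was 0.39 against −0.04 over all genes. Besides FOSL1, EGR1 and KLF6 these were PHLDA1 (0.95), the ERK phosphatase DUSP5 (0.85), IER2 (0.53), PLAUR (0.46), MCL1 (0.39) and IER3 (0.33). The ERK phosphatase DUSP6 had 0.40 ± 0.19 (limma adjusted p = 0.771) and the receptor feedback inhibitor SPRY2 −0.04 ± 0.13 (adjusted p = 1). Without the 8 h arrays 9 passed too, with FOS and MYC in place of PLAUR and MCL1. On top of 100 ng/ml TNF 1 of the 28 rose with EGF, PHLDA1 by 0.98 ± 0.13 (limma adjusted p = 0.000199), where 0.197% of genes rose. With 1 ng/ml EGF on 5 ng/ml TNF 0 did. Of the receptor and ligand list, 1 of 19 rose with EGF alone, which was HBEGF.

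Genes that work with ARL14 or CAPRIN2 gave few calls with EGF, as did genes at large (0.642% called). Of the ADP-ribosylation factor family 0 of 9 measured members changed, and of 22 partners and regulators of that family 0 changed. MYO1E had 0.02 ± 0.12 and PSD4, an exchange factor, −0.04 ± 0.13 (limma adjusted p = 1 for both). Of 12 MHC class II genes 0 changed. Of 21 caprin and RNA granule genes 0 changed, with CAPRIN1 at −0.03 ± 0.11 (adjusted p = 1). Of 20 genes of the list of Wnt receptor complex and LRP6 kinases 1 rose, the antagonist DKK1, by 1.16 ± 0.10. LRP6 and its kinase CDK14 did not pass the filter on low signal.

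With 100 ng/ml TNF 7.29% of genes were called higher and 11.3% lower, and the same lists were counted. Of MHC class II genes 7 of 12 rose and 0 fell, among them HLA-DOB by 3.04, HLA-DRA by 0.78 and the regulator CIITA by 0.55 (limma adjusted p from 3.91e-13 to 0.0149), and 6 rose without the 8 h arrays. ERK-responsive genes had 12 of 28 higher, such as DUSP5 by 1.77, and 2 lower, FOS at −1.14 and SPRY2 at −0.84. Of the ADP-ribosylation factor family, the vesicle coat GTPase SAR1A rose by 0.54 and ARL2 fell by 0.35, and ARL2 was not called without the 8 h arrays. Of the 22 partners and regulators 0 changed, and 1, ASAP1, was called higher without the 8 h arrays (0.63 ± 0.22, limma adjusted p = 0.0288). Of the 21 RNA granule genes LSM14A was lower by 0.23 on average (0.24, −0.53 and −0.39 at 4, 8 and 16 h). Without the 8 h arrays LSM14A was not called and FMR1 was called higher (0.56 ± 0.16, adjusted p = 0.027). Of 7 measured immune markers ITGAM rose by 1.2 and CD14 fell by 0.66, PTPRC lay below the filter's level, and the summed signal of the 11 on the array was 6348 to 9703 over the groups; their part in the TNF results was not tested. Of the 20 genes of the Wnt list 1 was called higher, GSK3B by 0.65, and 2 lower, DKK1 and FZD4. FZD4 had −0.60, −0.88 and 1.24 at 4, 8 and 16 h, and without the 8 h arrays 2 of the list were higher and 1 lower. DKK1 fell by 1.59, opposite to its rise with EGF, while CAPRIN2 was higher with either factor.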

How the data were processed

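HT-29 RNA was measured on 54 Affymetrix arrays. The deposited intensity values are linear signals from MAS5, per the submitters' processing notes, and the mean of each array after trimming 2% at each end was 500.2. The genome build is not given in the sources used here. Of 22283 probe sets 68 controls were left out, and 19065 of the rest had 1 symbol, 1043 several and 2107 none. Signals were taken as log2 after adding 12.49, their 10th percentile, which understates changes at low signal. Kept were the 13422 of 22215 probe sets with at least 1 group mean at or above 7.24, the median log2 value of the table.

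A mean per group was fitted with limma 3.58.1 in R 4.3.3 (27 residual degrees of freedom, variance trend), and each comparison was tested by an F test over 4, 8 and 16 h, adjusted by Benjamini and Hochberg at 0.05. The ± is the standard error of the mean over times. A called gene was counted as higher or lower by the sign of that mean, also where the sign differed between times. The duplicates are biological per the series text. Same-numbered arrays had residuals that correlated above 0.1 in 36 of 36 group pairs at 8 h, so the numbers paired arrays there, but in 27 of 36 at 4 h and 31 of 36 at 16 h. No block was used, and a block at 8 h or within each time was an alternative. The procedure was tested on simulated data. Genes named are the 2 members, the 10 most similar to each, up to 4 called members of each list and 16 fixed genes; others named were chosen after their values were seen. The 2 genes and the 10 gene lists were chosen with earlier results of these data known, and no list is independent evidence of its direction. Alternatives covered scaling, pseudocount, filter, the arrays fitted, replicate blocks and leaving out each array.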

Additional observations from a re-analysis of the deposited data

Results flagged for a closer look

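Effects that differed between times by a test of the difference itself were found in 3 cases. The effect of 100 ng/ml TNF on ARL14 against untreated cells was lower at 16 h than at 4 h by a log2 of −1.39 (limma adjusted p = 0.00118). In cells given 500 ng/ml insulin the effect of TNF on ARL14 changed by −2.18 over the same times (adjusted p = 0.00064), and that on CAPRIN2 by 1.59 in the other direction (adjusted p = 0.0112). All groups have 2 arrays, so within a group neither array could be called the outlying one. Each array was instead left out in turn.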

How the results depend on the processing

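Of 336 values recomputed under 9 alternatives, 324 kept their direction and their side of the threshold, or moved by less than the replicate spread where no test was made. Low-dose insulin added to low-dose TNF, near 0 in any case, turned to 0.019 for ARL14 under quantile normalization, and under median centring to 0.034 for ARL14 and 0.041 for CAPRIN2. For ARL14, insulin added to 100 ng/ml TNF passed with a pseudocount of 50, at −0.32. The replicate block within each time made 2 ARL14 calls that the fit without it did not, insulin added to TNF at −0.32 (limma adjusted p = 0.00599) and insulin against untreated cells at −0.13 (0.0242). The replicate block at 8 h made the former at −0.32 (0.0348). In blocked fits of the effects by time, added after the data were seen, 16 h minus 4 h passed in ARL14 for the TNF doses at −1.20 (0.012 within each time and 0.0482 at 8 h) and, within each time, for insulin at 1.56 (0.042) and insulin added to TNF at 0.77 (0.016). Among the tested differences and effects by time of CAPRIN2 and ARL14 the blocks changed no other call. The ARL14 interaction of TNF with EGF moved to −1.26 without the 8 h arrays. Of 684 values with 1 array left out, 670 stayed. Ranges were −0.42 to −0.22 for insulin added to TNF in ARL14, −0.10 to 0.013 and −0.20 to 0.095 for low-dose insulin in CAPRIN2 and ARL14, and, for 16 h minus 4 h, 1.46 to 1.72 for TNF with insulin in CAPRIN2, −0.31 to 0.12 for insulin, −0.31 to 0.033 for the TNF doses and −0.82 to 0.079 for low-dose EGF in CAPRIN2, and −0.57 to 0.11 for low-dose insulin in ARL14. Counts of probe sets called depended more on the fit. For 100 ng/ml TNF against no factor there were 2194, or 1160 with only the treatments compared, 1454 under median centring and 3347 with the block within each time. For 5 ng/ml TNF there were 914, or 490 and 1705 with the first and last of these. For EGF there were 80, or 13, 207 with the block within each time, 131 with the block at 8 h and 52 without the 8 h arrays. For insulin there were 31, or 0, 7, 160 and 87 with the compared treatments, centring and the 2 blocks, and for insulin added to TNF 67, or 2, 22, 378, 164 and, without the 8 h arrays, 21. For TNF in insulin-treated cells there were 2726, or 1354 and 4201 with the compared treatments and the block within each time, and for the TNF doses 170, or 49, 87, 503 and 286. For EGF added to TNF there were 30, or 2, 14, 72 with the block within each time and 11 without the 8 h arrays. For the interaction of TNF with insulin there was 1, or 3 without a pseudocount and 91 and 19 with the blocks. With 1 array left out the counts for insulin ran from 11 to 54, for insulin added to TNF from 29 to 112, for EGF added to TNF from 7 to 51, for the TNF doses from 104 to 208 and for low-dose EGF from 0 to 5. The cause of these shifts was not tested. With 2 arrays per group, a comparison that did not pass does not show equal levels. The intervals given are for the mean over times and are not adjusted for the number of probe sets. Some of them therefore exclude 0 where the adjusted F test did not pass.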

Other observations

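HBEGF, a ligand of EGFR, was a gene with a steep course in time. In untreated cells the mean HBEGF signal at 4, 8 and 16 h was 28.2, 349.7 and 2302, and with 100 ng/ml TNF it was 113, 367 and 1089.8. Of 19 measured genes of the receptor and ligand list 3 fell and 2 were called higher with 100 ng/ml TNF, where 11.3% of all genes were lower and 7.29% higher. The higher ones by their mean over times were EGFR by 1.02 and HBEGF by 0.16. For HBEGF the differences were 1.49, 0.07 and −1.07 at 4, 8 and 16 h, so its direction changed with time. LRIG1, a negative regulator of the receptor, fell by 0.78 ± 0.21, the ubiquitin ligase CBLB by 0.60 ± 0.16 and the receptor ERBB3 by 0.40 ± 0.11 (limma adjusted p = 0.0362, 0.0228 and 0.0271), named after their values were seen. ERBB3 was not called without the 8 h arrays (adjusted p = 0.0719), where GAB1 was (0.035). Of 13 measured epithelial markers 4 were lower and 1 higher with TNF, against the same shares over all genes, and VIL1, a brush border protein, fell by 1.01 ± 0.18 (limma adjusted p = 4.25e-05). The 1 counted as higher was KRT20, with 0.53, 0.22 and −0.51 at 4, 8 and 16 h.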
